A study of Mus musculus with 4 samples.

Results

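The miRNAs described here are mmu-miR-146a-5p, mmu-miR-146b-5p, mmu-miR-155-5p and mmu-miR-21a-5p, mouse miRNAs known to be induced by inflammatory signals. They were picked by name, and all 4 were found among the 1809 miRNAs listed for every library. The small RNA came from exosomes, membrane vesicles shed by cells, which were precipitated from the plasma of C57BL/6 mice. LLC cells (Lewis lung carcinoma, a mouse lung tumour line that grows on transfer) had been injected into a vein 21 days earlier. One group lacked gp49B (genotype gp49B-/-, here gp49B KO), an inhibitory receptor of the immunoglobulin family carried by myeloid cells. The other was wild type (WT). Each genotype had 2 libraries, here called pool 1 and pool 2 by their numbers in the labels, and plasma was pooled before sequencing, from 4 samples per gp49B KO library and 3 per WT library. The number of samples pooled therefore followed genotype, and single mice cannot be seen. All 4 libraries came from mice given LLC cells, so levels in mice without tumours were not analysed here, and the mRNA of the deleted gene was not measured.

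MicroRNAs are short RNAs that, held in an Argonaute protein, pair through their seed (bases 2 to 8 from the 5′ end) with messenger RNAs and lower their translation or stability. In macrophages and other leukocytes, signals through Toll-like receptors and NF-κB raise miR-146a, which in turn lowers the adaptor proteins TRAF6 and IRAK1 and so dampens the same signals; miR-146b shares its seed. miR-155, cut from the long noncoding RNA BIC, rises on activation of macrophages and lymphocytes and lowers the brakes SHIP1 and SOCS1. miR-21 is abundant in many tissues, rises with STAT3 signalling and in many tumours, and lowers PDCD4, an inhibitor of translation. In plasma, miRNAs of this kind are shed by blood cells, endothelium and other tissues, and a lower level from fewer releasing cells cannot be told apart from less RNA released per cell.

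The mature sequences are shown because they decide which counts can be mixed up with each other. They were taken from RefSeq on GRCm38.p6, where all 10 names described below were matched and lay at the positions given in the deposited tables. Seeds are in capitals.
miR-146a-5p: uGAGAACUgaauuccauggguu
miR-146b-5p: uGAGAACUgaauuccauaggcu
miR-155-5p: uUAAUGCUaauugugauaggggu
miR-21a-5p: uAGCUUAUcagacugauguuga
miR-21b: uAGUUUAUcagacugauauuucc
miR-21c: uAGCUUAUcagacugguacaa

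Both miR-146 strands carry the seed GAGAACU, and they were the only 2 miRNAs listed in these data that do so among the RefSeq mature sequences. Counted from the 5′ end, miR-146b-5p differs from miR-146a-5p by G18A and U21C, so 20 of 22 bases are the same and both differences lie near the 3′ end. miR-155-5p alone carried the seed UAAUGCU. miR-21c has the miR-21a seed, while miR-21b departs from it inside the seed by C4U. The sources used here do not say how reads that fit more than 1 of these names were counted, so counts within the miR-146 pair and among the miR-21 copies are uncertain to that extent.

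The 4 genes lie apart in the genome. miR-146a-5p is at chr11:43374435-43374456 on the minus strand, outside any other annotated gene in GENCODE M21. miR-146b-5p, at chr19:46342790-46342811 on the plus strand, is in an intron of Mfsd13a. miR-155-5p, at chr16:84714143-84714165 on the plus strand, is in an exon of Mir155hg, the gene of BIC. miR-21a-5p, at chr11:86584120-86584141 on the minus strand, overlaps the 3′ untranslated exon of Vmp1.

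Values are UMI counts, where a UMI (unique molecular identifier) is a tag put on each RNA molecule before amplification, so that copies are counted 1 time. Libraries held 1729201 and 3645842 UMIs in gp49B KO pools 1 and 2, and 1607218 and 3179081 in WT pools 1 and 2. Pool numbers differed in more than depth: reads per UMI were 5.70 in gp49B KO and 5.29 in WT in pool 1, against 2.11 and 1.69 in pool 2. Counts above 0 began at 10 in both pool 1 libraries, but at 2 in gp49B KO and 1 in WT in pool 2. Comparisons are therefore given within each pool number as well as together. CPM values (UMIs per 1e+06) were scaled by TMM, which assumes that most miRNAs do not differ. Scaling on total UMIs in its place shifted every log2 ratio of gp49B KO over WT by -0.17 in pool 1 and by 0.25 in pool 2. The TMM factors, by which library sizes are multiplied, were 1.503 in gp49B KO and 1.696 in WT in pool 1. In pool 2 they were 0.684 in gp49B KO and 0.574 in WT. TMM thus lowered CPM in pool 1 and raised it in pool 2, so comparisons across pool numbers also depend on the scaling. The labels do not say that the pools were separate groups of mice, so p-values rest on the spread between these libraries, which may be in part technical. The edgeR test used below estimates that spread in part from other miRNAs, so its intervals do not reflect the spread of a single miRNA alone.

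In each of the 4 libraries miR-21a-5p was the most abundant of the 4 miRNAs, followed by miR-146a-5p, miR-146b-5p and miR-155-5p. miR-21a-5p ranked 8 and 11 among all miRNAs in gp49B KO pools 1 and 2, and 9 and 12 in WT pools 1 and 2. miR-146a-5p ranked 12 and 19 in gp49B KO, and 19 and 29 in WT. The other members were middling: ranks ran from 63 to 95 for miR-146b-5p and from 119 to 174 for miR-155-5p. Neighbours in this order were apart by more than counting error in every library, the closest being miR-21a-5p and miR-146a-5p in gp49B KO pool 1, with 1.20 UMIs of miR-21a-5p per UMI of miR-146a-5p (exact 95% interval 1.18 to 1.22). Library kits ligate some miRNAs better than others, so the order is of UMIs recovered. Together the 4 took 3.60% and 1.77% of miRNA UMIs in gp49B KO, against 2.41% and 1.22% in WT. Both pool 1 shares exceeded both pool 2 shares, so the groups overlapped. The same was seen in the summed shares of the myeloid markers miR-223 and miR-142a, with all 4 detected in every library (4.64% and 1.14% in gp49B KO, 2.21% and 1.16% in WT).

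After TMM scaling miR-146a-5p was the only one of the 4 whose gp49B KO libraries both lay above both WT libraries. It had 26866 and 21584 UMIs in gp49B KO pools 1 and 2, and 12549 and 11242 in WT pools 1 and 2. In CPM after TMM these were 10459 and 8695 in gp49B KO, against 4690 and 6180 in WT. Of the 1797 miRNAs tested, 9.52% had both gp49B KO libraries above both WT libraries, and of the 352 abundant ones, those with at least 100 UMIs on average, 10.2%. mmu-miR-146a-5p averaged 9577 ± 1247 CPM in gp49B KO and 5435 ± 1054 CPM in WT (SD, n = 2 each). The gp49B KO over WT ratio was 2.23 within pool 1 (exact 95% interval 2.18 to 2.28, counting error only) and 1.41 within pool 2 (1.38 to 1.44). Scaled on total UMIs they were 1.98 and 1.68. Of the 352 abundant miRNAs, 17 had a higher ratio in pool 1 and 28 in pool 2, and this order does not depend on the scaling. As a share of miRNA UMIs the groups overlapped, with 1.57% and 0.595% in gp49B KO and 0.795% and 0.355% in WT. On that scale gp49B KO pool 2 lay below WT pool 1, so the separation after TMM depended on scaling between pool numbers. The exact two-sided permutation p for the shares was 0.667, where the smallest that 2 against 2 libraries allow is 0.333.

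With edgeR's quasi-likelihood test the log2 fold change of miR-146a-5p was 0.82 (SE 0.79, 95% interval -0.92 to 2.56), with a Benjamini-Hochberg adjusted p of 0.99995. None of the 4 was called at an adjusted p under 0.05, and neither was any other miRNA: edgeR called 0 of 1797 (0%), with 32 (1.78%) at an unadjusted p under 0.05. DESeq2 and limma-voom also called 0, with 28 (1.56%) and 27 (1.5%) at an unadjusted p under 0.05. With 2 libraries per genotype the interval for miR-146a-5p holds no difference as well as a difference of 5.89-fold.

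**Figure D1:**
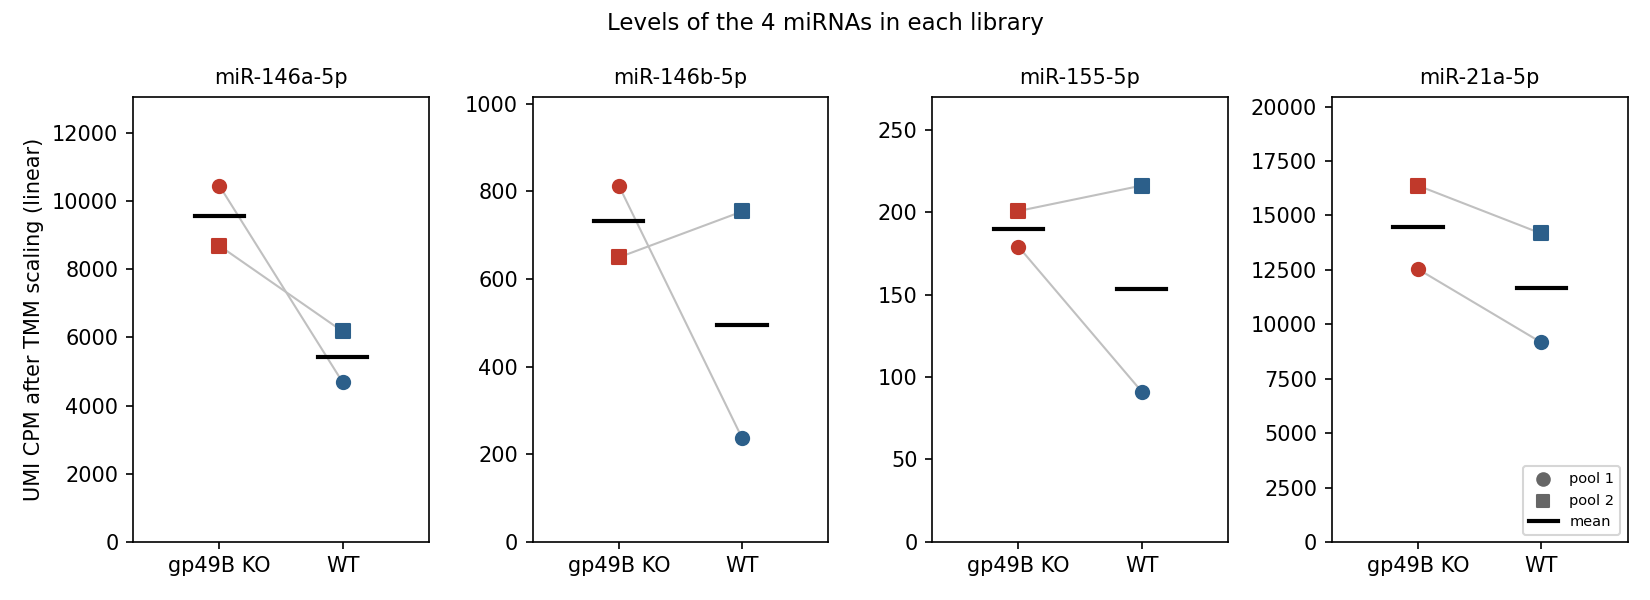
UMI CPM after TMM scaling (y axis, linear, from 0) of the 4 miRNAs in gp49B KO and WT libraries; circles are pool 1, squares pool 2, grey lines join libraries of the same pool number and black bars are means of 2 libraries. For miR-146a-5p both gp49B KO libraries, at 10459 and 8695 CPM, sit above both WT libraries, whereas for the other members the groups overlap. The WT pool 1 library is the lowest for all 4 miRNAs.

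The relative with the same seed, mmu-miR-146b-5p, was higher in gp49B KO in pool 1 and not in pool 2 with TMM. Its UMI counts were 2089 and 1612 in gp49B KO and 634 and 1372 in WT, which gave 813 and 649 CPM in gp49B KO and 237 and 754 CPM in WT. WT pool 1 was low and WT pool 2 lay between the gp49B KO libraries. In pool 1 the ratio was 3.43 (3.14 to 3.76), with 6 of the 352 abundant miRNAs above it, and in pool 2 it was 0.861 (0.801 to 0.926), with 252 above it. Scaled on total UMIs the pool 2 ratio turned to 1.03 (0.954 to 1.10), and the pool 1 ratio was 3.04. As a share of UMIs it had 0.122% and 0.0444% in gp49B KO, against 0.0402% and 0.0433% in WT, so the groups did not overlap on this scale, with both gp49B KO libraries higher as in 3.28% of the miRNAs tested and 7.67% of the abundant ones (exact two-sided permutation p = 0.333, the smallest possible). With edgeR the log2 fold change was 0.56 (SE 0.68, 95% interval -0.95 to 2.07, adjusted p = 0.99995), and it was -0.02 without WT pool 1.

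The 2 miR-146 strands did not keep a fixed proportion. There were 12.9 and 13.4 UMIs of miR-146a-5p for each of miR-146b-5p in gp49B KO pools 1 and 2, against 19.8 and 8.19 in WT pools 1 and 2. Counting intervals of the WT libraries, 18.3 to 21.5 and 7.75 to 8.67, were far apart and lay on either side of the gp49B KO values. This ratio needs no scaling between libraries, and it varied more between the WT libraries than between genotypes.

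The least abundant member, mmu-miR-155-5p, had 460 and 498 UMIs in gp49B KO and 244 and 393 in WT. After scaling this was 179 and 201 CPM in gp49B KO and 91.2 and 216 CPM in WT, with WT pool 1 low and WT pool 2 the highest of the 4. The ratio in pool 1 was 1.96 (1.68 to 2.30), and that in pool 2 0.929 (0.812 to 1.06), or 1.74 and 1.11 when scaled on total UMIs. In pool 2 both intervals held 1 with either scaling, so no difference was detectable at this depth. The edgeR log2 fold change was 0.31 (SE 0.57, 95% interval -0.96 to 1.57, adjusted p = 0.99995), and it was -0.16 without WT pool 1.

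The most counted member, mmu-miR-21a-5p, had ratios nearer to 1 than miR-146a-5p in both pools. It had 32204 and 40646 UMIs in gp49B KO and 24527 and 25782 in WT, or 12537 and 16374 CPM in gp49B KO and 9166 and 14172 CPM in WT. The gp49B KO library was above the WT library of the same pool number, but gp49B KO pool 1 lay below WT pool 2. The pool 1 ratio was 1.37 (1.35 to 1.39) and the pool 2 ratio 1.16 (1.14 to 1.17), or 1.21 and 1.38 when scaled on total UMIs. Of the 352 abundant miRNAs, 98 had a higher ratio in pool 1 and 90 in pool 2, so its ratio was not far up the order in either. Its edgeR log2 fold change was 0.31 (SE 0.85, 95% interval -1.56 to 2.18, adjusted p = 0.99995).

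**Figure D2:**
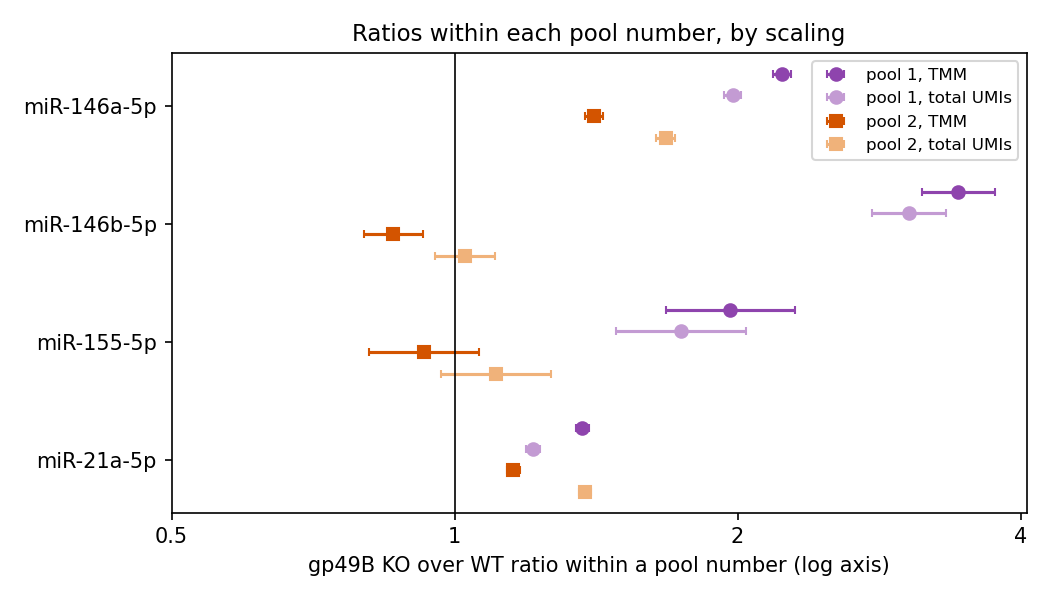
Ratio of gp49B KO over WT (x axis, log scale) of each miRNA in pool 1 (circles) and pool 2 (squares), scaled by TMM (dark) or on total UMIs (pale), bars being exact 95% intervals (counting error only). miR-146a-5p and miR-21a-5p are above 1 in both pools with either scaling, and the pool 2 ratios of miR-146b-5p and miR-155-5p lie below 1 with TMM (0.861 and 0.929) and above 1 with total UMIs (1.03 and 1.11).

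Set side by side with TMM scaling, all 4 miRNAs had a gp49B KO over WT ratio above 1 in pool 1. The median ratio was 2.10 in pool 1 and 1.04 in pool 2, or 1.86 and 1.24 when scaled on total UMIs. With TMM 2 of the 4 were higher in both pools, against 24.5% of the miRNAs tested and 30.7% of the 352 abundant ones. With total UMIs 4 of 4 were, against 24.4% and 33.8%. All 4 fitted log2 fold changes were above 0, with a median of 0.44, where 851 of the 1797 miRNAs tested and 205 of the 352 abundant ones were above 0 and the medians were -0.03 and 0.05. The members were chosen with earlier results known, so these counts are a description. Each pool number has 1 library per genotype, so whether the pools differed was not tested.

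**Figure D3:**
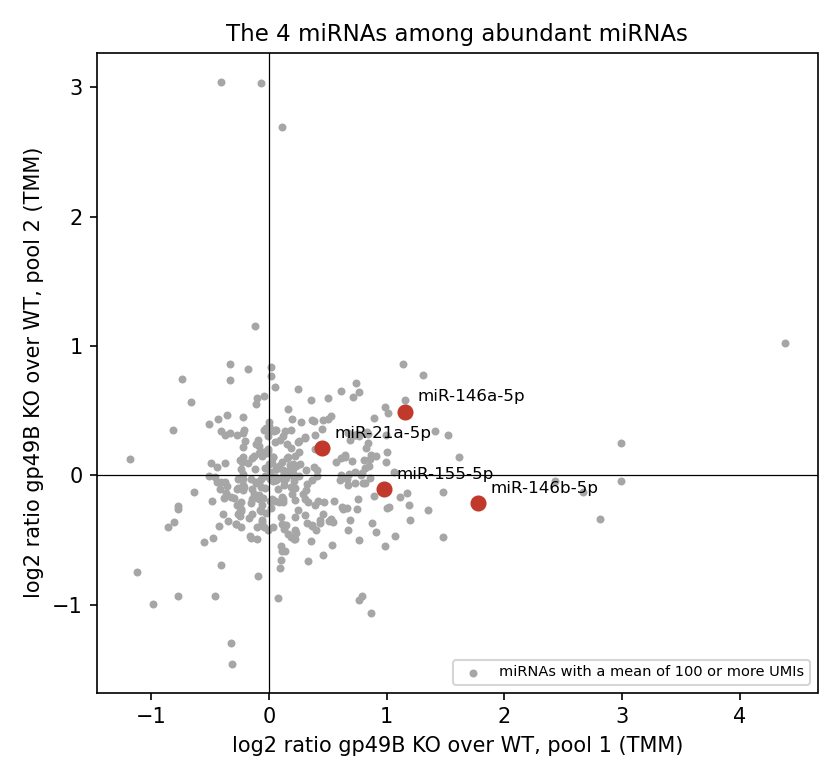
Log2 ratio of gp49B KO over WT after TMM scaling in pool 1 (x axis) and pool 2 (y axis) for 352 miRNAs that averaged at least 100 UMIs (grey), with the 4 members in red. miR-146b-5p is far to the right at a pool 1 ratio of 3.43 but just below the horizontal line, and miR-146a-5p is the member with the highest pool 2 ratio, 1.41.

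Markers of the cells that release plasma miRNAs were counted in the same way, beside the 352 abundant miRNAs, of which 62.5% had a ratio above 1 in pool 1 and 46.0% in pool 2 with TMM, and 44.9% and 74.7% with total UMIs. With TMM all 4 myeloid, all 3 lymphocyte (miR-150 and miR-181), all 4 platelet and endothelial and all 4 muscle markers were higher in gp49B KO in pool 1, with median ratios of 1.65, 1.99, 1.78 and 7.48. In pool 2 there were 1 of 4, 2 of 3, 2 of 4 and 1 of 4 higher, with medians of 0.960, 1.02, 1.10 and 0.942. Scaled on total UMIs, pool 2 had 3 of 4, 3 of 3, 3 of 4 and 3 of 4 higher. The red blood cell markers (miR-451a, miR-144 and miR-486) were lower in 7 of 7 in pool 1 with either scaling. In pool 2 1 of 7 was higher with TMM (median ratio 0.891) and 5 of 7 with total UMIs (median 1.06), so the direction turned with the scaling. Their summed shares were 8.56% and 18.2% in gp49B KO and 11.4% and 18.8% in WT. The 5 liver markers were lower in both pools with TMM, with summed shares of 7.49% and 20.3% in gp49B KO and 11.4% and 27.3% in WT, and 2 of 5 were higher in pool 2 with total UMIs. The muscle markers took 3.73% and 0.690% of UMIs in gp49B KO and 0.404% and 0.428% in WT, the only marker list whose summed shares did not overlap between genotypes. Of these markers only miR-206-3p had shares that did not overlap on its own, at 1.53% and 0.412% in gp49B KO and 0.0827% and 0.170% in WT. The shares of each other muscle marker overlapped. Both gp49B KO shares were above both WT shares in 3.28% of the miRNAs tested and 7.67% of the abundant ones. No marker of any list was at 0 in a library. edgeR called 0 of them, with 2 at an unadjusted p under 0.05, against 1.78% of the miRNAs tested. These were the muscle miRNAs miR-133b-3p and miR-206-3p, which are named after their values were seen. For miR-133b-3p gp49B KO pool 1 stood apart, with 334 and 58.8 CPM after TMM in gp49B KO and 52.7 and 64.3 in WT, so its groups overlapped. The part of these cell types in the values of the 4 miRNAs was not tested.

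Of 24 other miRNAs known from inflammatory signalling, 24 were tested, 0 were called and 0 had an unadjusted p under 0.05. Estimates were higher in gp49B KO for 15 and lower for 9, with a median log2 fold change of 0.05. With TMM 15 were higher in pool 1 and 6 in pool 2, and 3 in both; with total UMIs 13 and 16 were, and 9 in both. The most abundant was let-7i-5p, which represses TLR4 in human bile duct cells, with 30812 and 63719 UMIs in gp49B KO and 33656 and 47650 in WT and ratios of 0.954 and 0.980. miR-223-3p, a miRNA of neutrophils and monocytes, had 66021 and 21839 UMIs in gp49B KO and 24661 and 22310 in WT. Its ratios of 2.79 and 0.717 thus fell on opposite sides of 1, as did those of 4 more of the 6 most abundant of this list. They were 2.25 and 0.908 for miR-125a-5p and 2.28 and 0.855 for its relative miR-125b-5p. For miR-10a-5p, which restrains NF-κB signalling in human endothelial cells, they were 2.11 and 0.722, and for miR-29a-3p, a repressor of collagen genes, 1.17 and 0.933. With total UMIs the pool 2 ratios of miR-125a-5p, miR-125b-5p, miR-29a-3p and let-7i-5p were 1.08, 1.02, 1.11 and 1.17.

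The 3p strands of the same hairpins were scarce. A hairpin yields a strand from each arm, and in these 4 the 5p strand is the one mostly kept. The 3p counts ran from 7 to 71 UMIs. Those of the miR-146 pair are shown because, unlike the 5p strands, they do not share a seed.
miR-146a-3p: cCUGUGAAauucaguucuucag
miR-146b-3p: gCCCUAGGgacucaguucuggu
miR-146a-3p had 19 and 71 UMIs in gp49B KO and 27 and 11 in WT, and miR-146b-3p had 21 and 36 in gp49B KO and 19 and 7 in WT. In both, by UMIs and by CPM after TMM, the gp49B KO pool 2 library was the highest and the WT pool 2 library the lowest. As a share of UMIs this order held for miR-146a-3p at both ends. For miR-146b-3p the shares of pool 1, 0.00123% in gp49B KO and 0.00120% in WT, were above the 0.00099% of gp49B KO pool 2. The pool 1 ratio of miR-146a-3p was 0.733 (0.385 to 1.37) and the pool 2 ratio 4.73 (2.49 to 9.90), in the reverse order of its 5p strand. For miR-146b-3p they were 1.15 (0.589 to 2.26) and 3.77 (1.65 to 10.04). With edgeR the log2 fold changes were 1.12 (SE 0.61) and 1.00 (SE 0.52), each with an adjusted p of 0.99995. The pool 1 table holds no count between 0 and 10, and 3p counts of 16 to 60 there are near that limit.

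miR-155-3p had 23 and 21 UMIs in gp49B KO and 16 and 9 in WT, and miR-21a-3p 58 and 35 in gp49B KO and 60 and 25 in WT. Ratios of miR-155-3p were 1.50 (0.757 to 3.03) and 1.71 (0.751 to 4.24), and those of miR-21a-3p 1.01 (0.690 to 1.47) and 1.03 (0.597 to 1.79), so no difference was detectable at this depth within either pool. The 5p strand outnumbered the 3p strand in every library: by 1414 and 304 to 1 for miR-146a in gp49B KO and by 465 and 1022 to 1 in WT. For miR-21a these were 555 and 1161 in gp49B KO and 409 and 1031 in WT, so pool 2 was higher than pool 1 in both genotypes. They were lower for miR-146b, at 99.5 and 44.8 in gp49B KO and 33.4 and 196 in WT, and lowest for miR-155, at 20.0 and 23.7 in gp49B KO and 15.3 and 43.7 in WT.

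**Figure D4:**
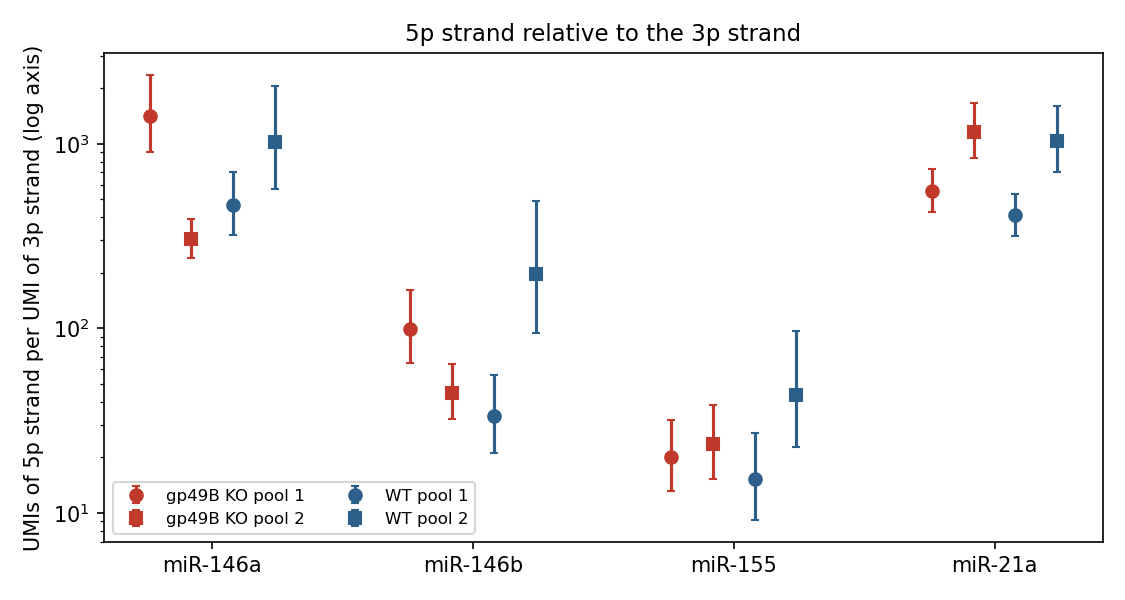
UMIs of the 5p strand for each UMI of the 3p strand (y axis, log scale) of the 4 hairpins in gp49B KO (red) and WT (blue) libraries, circles for pool 1 and squares for pool 2, bars being exact 95% intervals (counting error only). miR-146a and miR-21a are at 304 or above, miR-155 is between 15.3 and 43.7, and the genotypes change places between the pools for miR-146a and miR-146b, whose intervals are apart in both pools, and for miR-155, whose intervals overlap.

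The miR-21 copies were far rarer than miR-21a-5p. miR-21b had 204 and 70 UMIs in gp49B KO and 150 and 38 in WT, and miR-21c had 181 and 73 in gp49B KO and 182 and 54 in WT. Their log2 fold changes of 0.47 (SE 0.63) and 0.03 (SE 0.58) did not pass edgeR's test (adjusted p = 0.99995 for both). miR-21a-5p outnumbered miR-21b by 158 and 581 to 1 in gp49B KO and by 164 and 678 to 1 in WT, so the proportion went with pool number.

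The miRNAs with the most similar profile were sought among the 351 other abundant ones, by the distance between log2 CPM values of the 4 libraries, each centred on its own mean. Closest to miR-21a-5p was miR-183-5p, at a distance of 0.02 log2 units, with 597 and 746 UMIs in gp49B KO and 456 and 475 in WT. miR-181a-5p, a lymphocyte miRNA, was closest to miR-155-5p, at 0.15, and miR-379-5p to miR-146a-5p, at 0.29. The nearest to miR-146b-5p was miR-125b-5p, at 0.44. The members were not each other's nearest neighbours: miR-155-5p and miR-21a-5p were the closest pair, at 0.47, and miR-146a-5p and miR-146b-5p were 0.90 apart. With 4 libraries such distances describe these samples and no more.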

How the data were processed

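The deposited tables give UMI counts and read counts per mature miRNA, made with the QIAseq miRNA kit from ExoQuick precipitates, per the labels' protocols. The authors also deposited a normalized log2 value per library, by a method that the sources used here do not give. Per the submitters' processing notes, FastQC 0.11.9 was used and the build was GRCm38 (mm10); the aligner and counter are not stated. Columns were assigned to libraries by their names and titles.

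The 1809 miRNAs listed in both pool tables were compared. piRNAs, 0.278% to 1.79% of UMIs, were left out. Genotypes were compared with edgeR 4.0.16 in R 4.3.3 (default expression filter, TMM, two-sided quasi-likelihood F-test, Benjamini-Hochberg adjustment over 1797 miRNAs, 2 residual degrees of freedom). SE is the log2 fold change divided by the square root of F, in which the spread is estimated in part across miRNAs. Ratios within a pool number have exact conditional binomial 95% intervals, and shares exact permutation tests (6 splits). Alternatives used limma 3.58.1, DESeq2 1.42.0, other scalings, filters and units. The edgeR test was checked on simulated counts, which had no deviation shared by pool number and so differ from these libraries. Scripts ran in Python 3.11.15 with pandas 2.3.3 and SciPy 1.17.1. Members and lists were chosen with earlier results of these data known. Named miRNAs were the members, their 3p strands, miR-21b and miR-21c, the 6 most abundant of the inflammation list and nearest profiles, searched with a prior count of 2.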

Additional observations from a re-analysis of the deposited data

How the results depend on the processing

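Under 17 alternatives to the edgeR fit the log2 fold change of miR-146a-5p stayed between 0.66 and 1.03 and that of miR-21a-5p between 0.05 and 0.66, both above 0 in all 17. Those of miR-146b-5p and miR-155-5p were above 0 in 16 of 17, the exception being -0.021 and -0.16 without WT pool 1. No alternative called any of the 4 (lowest adjusted p 0.450, for miR-146a-5p).

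With pool number as a replicate block, which leaves 1 residual degree of freedom, 0 miRNAs were called (78 had an unadjusted p under 0.05). The log2 fold change of miR-146a-5p, among those 78, was 0.82 (SE 0.30, edgeR unadjusted p = 0.0388, adjusted p = 0.898). It was 0.78 for miR-146b-5p, 0.43 for miR-155-5p and 0.33 for miR-21a-5p, each with an edgeR unadjusted p above 0.05. Same-numbered libraries deviated alike from their group means (correlation across miRNAs 0.527), but the labels do not say what a pool number shares. The block with miRNAs of a mean of 100 or more UMIs called 10 of 352, and gave miR-146a-5p 0.74 (adjusted p = 0.450, edgeR).

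Leaving out 1 library at a time, the number called ranged from 0 to 3 (3 without gp49B KO pool 2, 2 without WT pool 2), and the ranges of log2 fold change were 0.66 to 1.03 for miR-146a-5p, -0.021 to 1.63 for miR-146b-5p, -0.16 to 1.06 for miR-155-5p, 0.05 to 0.66 for miR-21a-5p, -0.16 to 1.81 for miR-146a-3p, -0.36 to 0.44 for miR-21a-3p, -0.44 to 1.39 for miR-21b and -0.72 to 0.77 for miR-21c. The mean share, gp49B KO minus WT, ranged from 0.0196 to 0.996 percentage points for miR-146a-5p, 0.00267 to 0.0805 for miR-146b-5p, -0.000213 to 0.0130 for miR-155-5p and -0.0643 to 0.700 for miR-21a-5p.

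With total UMIs in place of TMM, pool 1 ratios were 1.98 for miR-146a-5p, 3.04 for miR-146b-5p and 1.21 for miR-21a-5p, and pool 2 ratios 1.68, 1.03 and 1.38, with 1.11 for miR-155-5p. With TMM on abundant miRNAs the pool 1 ratios of the same 3 were 1.95, 3.00 and 1.20, and with DESeq2 size factors they were 2.28 for miR-146a-5p and 1.40 for miR-21a-5p. The log2 fold change of miR-21a-3p turned to -0.074 with total UMIs, -0.12 with TMM on abundant miRNAs and -0.13 with read counts. That of miR-21c turned to -0.071 with total UMIs, -0.11 with TMM on, or a test of, abundant miRNAs, -0.074 with the block and abundant miRNAs, and -0.61 with read counts. The cause was not tested.

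Depth limits the 3p strands most: at 7 to 71 UMIs their intervals span several fold. The 4 members' intervals are narrow, so 2 libraries per genotype and the gap between pool numbers limit what can be said of genotype.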

Other observations

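Relative to miR-223-3p, the neutrophil and monocyte miRNA, miR-146a-5p had 0.407 and 0.988 UMIs per UMI in gp49B KO pools 1 and 2, against 0.509 and 0.504 in WT pools 1 and 2. The WT libraries were alike in this ratio, with exact 95% intervals of 0.498 to 0.520 and 0.493 to 0.515, although they differed in depth and in reads per UMI, and the gp49B KO libraries lay on either side of them. For miR-146b-5p the same ratio was 0.0316 and 0.0738 in gp49B KO and 0.0257 and 0.0615 in WT, and it went with pool number.

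Reads per UMI also set the miR-21 copies apart from miR-21a-5p. miR-21a-5p had 6.58 and 2.25 reads per UMI in gp49B KO and 6.19 and 1.77 in WT, and the other 3 members were within 5.44 to 6.35 in pool 1. Over all miRNAs the median was 5.85 and 2.20 in gp49B KO and 5.51 and 1.71 in WT. miR-21b had 1.60 and 1.09 in gp49B KO and 1.92 and 1.08 in WT, and miR-21c 2.12 and 1.33 in gp49B KO and 3.45 and 1.39 in WT. Low values were not particular to these copies: miR-486a-3p, for example, had 1.42 and 1.28 in gp49B KO and 1.37 and 1.15 in WT. Whether the UMIs of miR-21b and miR-21c are sequence variants of miR-21a-5p reads was not tested.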
